A study of Rattus norvegicus with 16 samples.

Results

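The comparison set 2 arrays of glomerular cells labelled as macrophages against 2 arrays of blood pan T cells, 4 of the 16 arrays of the series. Both groups came from female WKY rats (spelled Wista Kyoto in the labels) aged 15 weeks, and were chosen by their sample titles. All animals had been immunised with an autoantigen that induces autoimmune glomerulonephritis, and were killed for collection of blood and kidneys on days 30 to 35. No group of unimmunised rats is among the 16 arrays. Pan T cells came from blood mononuclear cells on a Ficoll gradient, and the macrophage-labelled cells from digested glomeruli; both then went through a magnetic bead sort in 3 steps. The labels report that purity was checked by flow cytometry and give no values; the markers sorted for each population are not given in the sources used here. The array names attached to both groups read pan T, so the macrophage label of the glomerular group rests on its title and its cell population entry. It is called macrophage-labelled throughout. RNA was hybridised to Agilent 1-colour rat arrays. The other groups are CD8+ RT1B+ and CD8+ RT1Blow cells from blood of WKY and LEW rats and from WKY glomeruli, with 2 arrays each. RT1B is a rat MHC class II molecule. The 4 glomerular CD8+ arrays are used here as a second comparison from the same digested tissue. Nothing in the labels tells whether paired arrays represent separate rats, separate pools or repeats of 1 RNA, so the p-values cover array-to-array spread that could be purely technical.

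The glomerulus is the capillary tuft that filters blood: fenestrated endothelium, a basement membrane and podocytes form the filter, and mesangial cells hold the capillaries together. In autoimmune glomerulonephritis monocytes leave the blood, become macrophages in the tuft, take up debris and immune complexes through Fc and complement receptors, and release proteases, cytokines and chemokines. WKY rats are known for a severe macrophage-rich form of the disease. Blood pan T cells carry the T cell receptor with its CD3 chains, and most of those in circulation express genes for homing to lymph nodes.

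Levels are log2 of the processed spot signal minus the array's own 75th percentile, so that 0 marks that percentile, and levels are compared only within a gene. Where neither array of the lower group measured a gene well above background, its fold is a lower bound ("at least"), taken against the dimmest signal that was well above background on each array of that group or the gene's own signal there, whichever was higher. A list median with bounds sets such genes at that bound. A gene was called at a limma adjusted p (Benjamini-Hochberg over all genes tested) under 0.05, a change of at least 2-fold, and signal well above background on both arrays of at least 1 of the groups. Against pan T cells, 6747 of 17879 genes were called (37.7%), 3187 of them higher on the macrophage-labelled arrays (17.8%) and 3560 lower (19.9%). The median log2 difference over all genes tested was -0.23, and single genes ranged from -7.37 to 12.61. Large changes ran mostly upwards: of 999 genes called with a change of at least 16-fold, 895 were higher and 104 lower. Called genes that were not well above background on either pan T array numbered 1496 (8.37% of those tested), against 280 in the other direction (1.57%). Among genes well above background on all 4 arrays, 4485 were called and 32.8% of those were higher, against 47.2% of all called genes. Against the glomerular CD8+ arrays, 6649 of 17878 genes were called (37.2%), with 2702 higher (15.1%) and 3947 lower (22.1%). Both comparisons share the macrophage-labelled arrays, so their values are given side by side. The arrays of each group correlated at 0.978 (macrophage-labelled) and 0.982 (pan T) across genes, 57.3% to 68.6% of gene spots per array were well above background, and 0 were saturated.

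The markers tied to the macrophage label were high. Cd14, the coreceptor for bacterial lipopolysaccharide, had levels of 3.77 and 3.31 on the macrophage-labelled arrays and -3.02 and -2.40 on the pan T arrays, a log2 difference of 6.25 ± 0.95 (SE, adjusted p = 0.000271, limma). Cd68, a lysosomal glycoprotein of macrophages, stood at 4.42 and 3.38 against -0.70 and -0.86, a difference of 4.68 ± 0.71 (adjusted p = 0.000278, limma). Itgam, the integrin CD11b of myeloid and NK cells, read 0.82 and 0.60 against -2.71 and -2.16 (3.14 ± 0.28). Cd3e, a signalling chain of the T cell receptor, went the other way, with -0.03 and -1.13 against 2.18 and 2.64, a difference of -2.99 ± 0.62 (adjusted p = 0.00213, limma). None of these 4 genes overlapped between the groups, as was true of 74.4% of all genes tested. Itgam was not highest on the macrophage-labelled arrays. It read 1.22 to 1.91 on the blood CD8+ arrays and 0.92 and 0.45 on the glomerular CD8+ RT1Blow arrays. Both glomerular CD8+ RT1B+ arrays read -0.15.

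Other defining macrophage genes did not pass the test, or passed it only with another probe or setting of the fit. Csf1r, the receptor for the macrophage growth factor CSF1, had levels of -1.28 and -0.90 against -2.22 and -2.31 and was not called (1.18 ± 0.47, adjusted p = 0.0544, limma) by the probe with the higher mean. A second Csf1r probe, well above background on all 4 arrays, differed by 3.16, and with the mean of both probes Csf1r was called higher (2.17, adjusted p = 0.00633, limma). By the probe with the higher mean it was also called with the stricter filter for dim probes (adjusted p = 0.0418, limma) and trended variances (0.0391). The same held with only the compared arrays (adjusted p = 0.0267, limma) or only those of slide 2 (0.025) in the fit. Adgre1, which encodes F4/80, differed by 0.42 ± 0.76, and the scavenger and mannose receptors Cd163 and Mrc1 were not well above background on any of the 4 arrays. Lyz2, a lysozyme gene, differed by 1.97 ± 0.78 (adjusted p = 0.0527, limma) and was not called. It was called with quantile normalization (2.39), the deposited log2 table (2.33), the stricter filter and trended variances. It was also called with only the compared arrays (adjusted p = 0.00729, limma) or only those of slide 2 (0.00354) in the fit. T cell transcripts remained above background on the macrophage-labelled arrays: Cd3d, another CD3 chain, read 4.09 and 2.13 there, 6.26 and 6.32 on pan T arrays, and from 2.08 to 3.41 on the glomerular CD8+ arrays. Between the macrophage-labelled and glomerular CD8+ arrays no difference was called for Cd3d (0.52 ± 0.50) or Cd3e (0.78 ± 0.54, adjusted p = 0.235, limma).

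**Figure D1:**
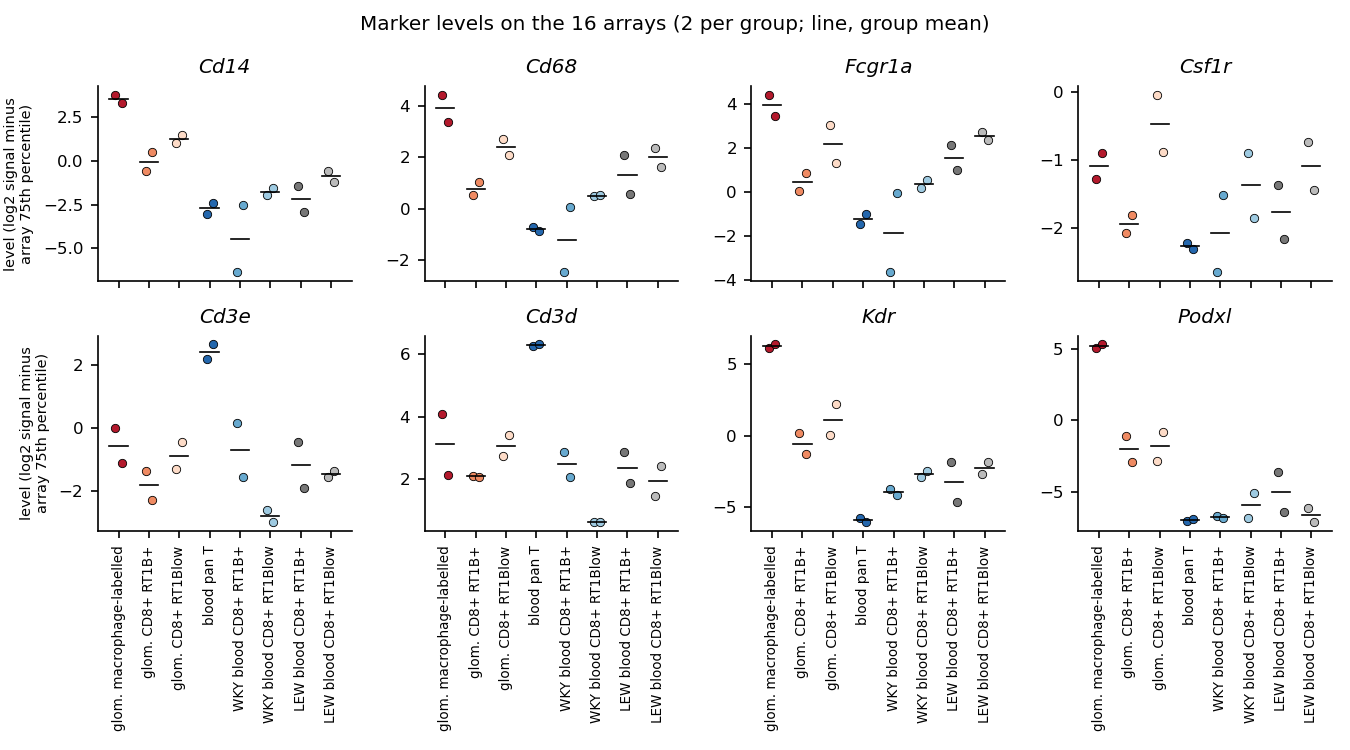
Levels (log2 signal minus the array's 75th percentile) of 8 marker genes on all 16 arrays, by group on the x axis; points are arrays and lines are group means. Cd14 and Cd68 are highest on the macrophage-labelled arrays, Csf1r by the probe shown is not, Cd3e and Cd3d are highest on the pan T arrays, and Kdr and Podxl, of endothelium and podocytes, are highest on the macrophage-labelled arrays, where Kdr reads 6.14 and 6.39.

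The same arrays carried a strong signal of resident glomerular cells. The endothelial list had 21 genes, of which 15 were tested, and 14 were called higher than in pan T cells with 0 lower; the median log2 difference was 6.23, or 5.91 with the 8 genes that were not well above background in pan T cells set at their lower bound. Kdr, the main receptor for VEGF on endothelium, had levels of 6.14 and 6.39 against -5.76 and -6.05, at least 2745-fold higher, and was not well above background on either pan T array. Emcn, which encodes the endothelial sialomucin endomucin, read 2.57 and 3.99 against -7.11 and -6.92, at least 346-fold higher. Pecam1, the adhesion molecule CD31 found on endothelium and on leukocytes, was detected in both groups and was higher by 2.52 ± 0.45 (adjusted p = 0.000781, limma). Cdh5, the cadherin of endothelial junctions, was higher by 2.12 ± 0.30. The angiopoietin receptor Tek was at least 9.50-fold higher, the transcription factor gene Erg at least 321-fold, the adhesion molecule gene Esam at least 217-fold, the TGF-beta coreceptor gene Eng at least 274-fold and the VEGF receptor gene Flt1 at least 39.4-fold. The gene that was not called, Icam2, is expressed by lymphocytes as well as endothelium and differed by 0.02 ± 0.27.

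Markers of the other resident cells divided. Of the 11 tested mesangial and perivascular genes, 8 were called higher and 0 lower, with a median of 4.38 (3.25 with bounds). Pdgfrb, the receptor for platelet-derived growth factor B on mesangial cells, read 0.06 and 1.34 against -7.30 and -7.03, at least 58.0-fold higher. Itga8, an integrin of the mesangium, read -1.0 and 0.75 against -7.24 and -7.09, at least 32.8-fold higher. A second Itga8 probe differed by 1.54. The intermediate filament gene Des was at least 55.0-fold higher, the proteoglycan gene Cspg4 of pericytes at least 38.5-fold, the smooth muscle gene Tagln at least 24.6-fold and the protease inhibitor gene Serpine2 at least 4.89-fold. Acta2, smooth muscle actin, was under the 2-fold limit (0.68 ± 0.21). Of 20 podocyte genes, 10 were tested, 7 were higher and 1 was lower. Podxl, a sialomucin of podocytes that endothelium also makes, had levels of 5.09 and 5.32 against -7.06 and -6.96, at least 1313-fold higher. Nphs1 (nephrin), a slit diaphragm protein, was not well above background on any of the 4 arrays. Synpo, a podocyte actin regulator, read -3.61 and -3.20 against -3.97 and -4.22 and was not called, whereas Wt1, the podocyte transcription factor, read -4.01 and -3.11 against -6.87 and -6.80, at least 3.02-fold higher. Another of the 3 Wt1 probes differed by only 0.10. Further podocyte genes called higher, which other cell types express too, were Nes (nestin, 5.15 ± 0.37), Clic5 (5.01 ± 0.40), the phosphatase gene Ptpro (3.62 ± 0.78) and Foxc2 (at least 4.29-fold).

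Matrix genes followed. Of 18 tested basement membrane and matrix genes, 17 were called higher and 0 lower, with a median of 6.02 (4.77 with bounds). Col4a1, a chain of the type IV collagen of all basement membranes, read 3.78 and 4.09 against -7.29 and -5.38, at least 545-fold higher. Mgp, which encodes the calcification inhibitor matrix Gla protein, read 5.57 and 6.30 against -5.31 and -6.81, at least 2182-fold higher. The laminin and nidogen genes Lamb2 (at least 221-fold) and Nid2 (at least 198-fold) and the collagen gene Col18a1 (at least 190-fold) followed, and Lamc1, measured in both groups, differed by 7.47 ± 0.31. Tubule genes were also present: 18 of 24 tested were called higher and 2 lower, with a median of 3.67 (2.50 with bounds). Miox, an enzyme of the proximal tubule, read 1.70 and 0.04 against -5.78 and -7.10, at least 65.2-fold higher, and Umod, the uromodulin of the thick ascending limb, at least 35.2-fold higher. For proximal tubule the transporter genes Slc34a1 and Slc5a2 were at least 31.7-fold and 27.7-fold higher, Fbp1 at least 42.2-fold, Kap, an androgen-regulated gene, at least 73.1-fold, and the uptake receptor gene Cubn at least 3.80-fold. Its partner Lrp2 read -2.91 and -3.67 against -2.37 and -4.12 and was not called. The collecting duct water channel gene Aqp2 differed by 2.64 ± 0.26, the loop transporter gene Slc12a1 was at least 3.72-fold higher and the tubule cadherin gene Cdh16 at least 35.8-fold. Slc12a1 lost its call without the second macrophage-labelled array (adjusted p = 0.0935, limma) or the first pan T array (adjusted p = 0.0791, limma).

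The kidney lists were also higher than on the glomerular CD8+ arrays, which came from the same digested tissue. All 15 tested endothelial genes were called higher than on those arrays (median 5.68), as were 8 of 11 mesangial genes (4.35), 17 of 18 matrix genes (4.88), 21 of 24 tubule genes (3.74, with 2 lower) and 7 of 10 podocyte genes (2.0, with 1 lower). The summed linear signal of the endothelial list, in units of the array's 75th percentile, was 141 to 177 on the macrophage-labelled arrays and 1.70 to 7.86 on the 14 others. For the matrix list the sums were 269 to 297 against 4.64 to 34.8, and for podocyte genes 65.4 to 79.9 against 1.46 to 20.8. For mesangial genes the sum was 9.52 to 16.1 against 3.58 to 10.02, and for tubule genes 12.8 to 25.4 against 0.87 to 31.3, so these 2 overlapped with other arrays. How much these cells contribute to the leukocyte results was not tested. Tissue, label and slide column (pan T in columns 1 and 2 of slide 2, macrophage-labelled in columns 3 and 4 of the same row) all changed together against pan T cells and cannot be told apart. In bulk RNA, fewer cells of a type and less RNA per cell cannot be told apart either.

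**Figure D2:**
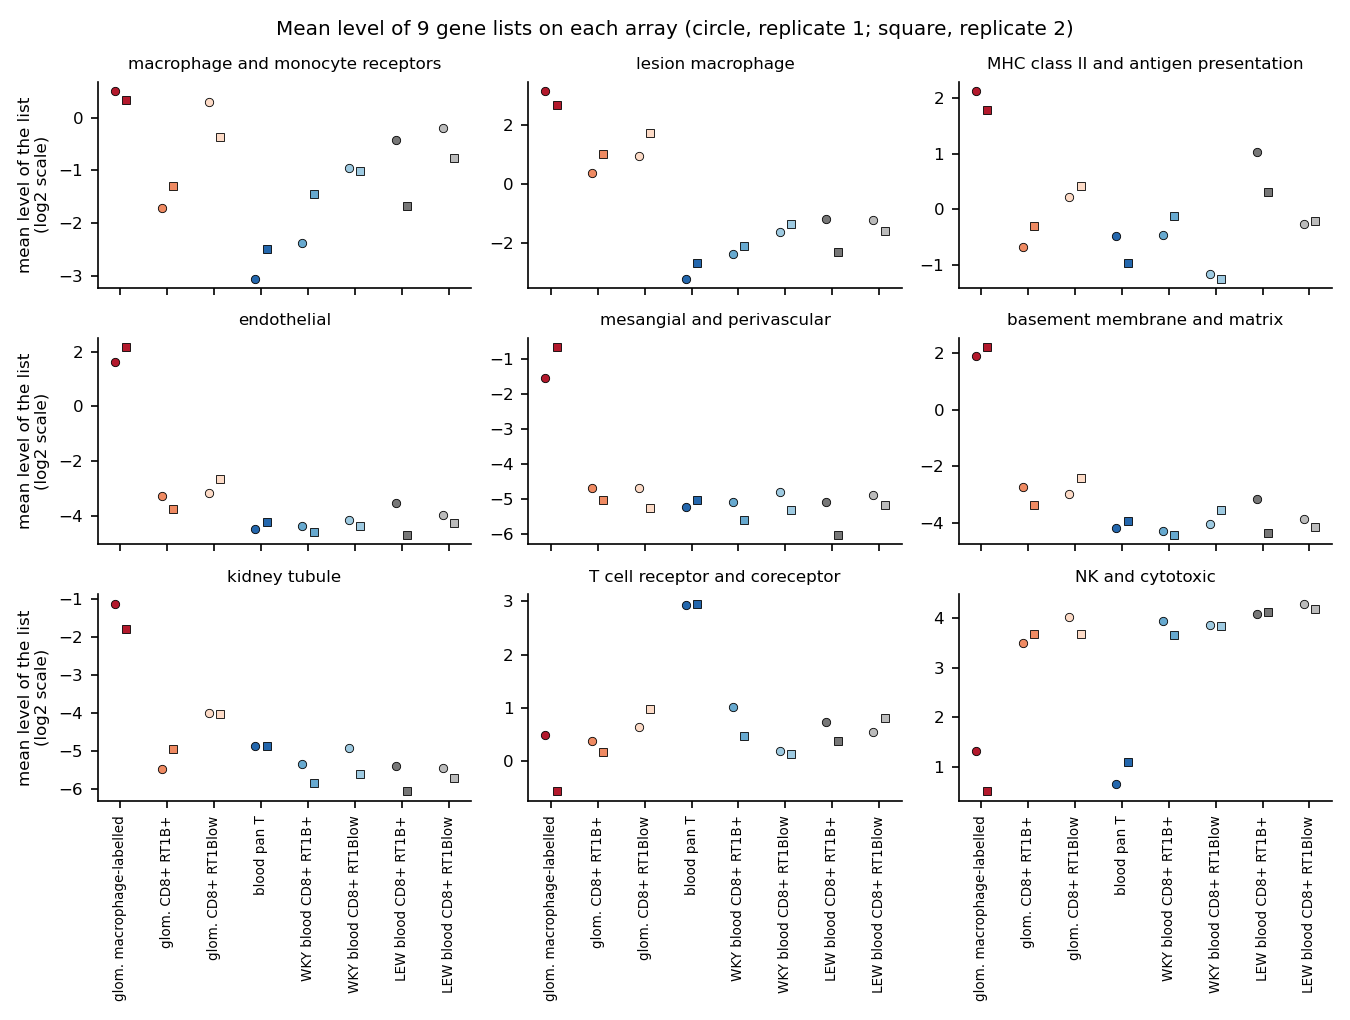
Mean level (log2 scale) of the tested genes of 9 lists on each of the 16 arrays, by group on the x axis; circles are replicate 1 and squares replicate 2. The endothelial, mesangial, matrix and tubule means of the macrophage-labelled arrays lie above all 14 others, whereas the T cell list is highest on the pan T arrays and the NK list lies lowest on the macrophage-labelled and pan T arrays.

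Surface receptors of macrophages and monocytes were broadly higher. Of 33 listed genes, 30 were tested, 24 were called higher than in pan T cells and 0 lower, with a median log2 difference of 3.16 (2.87 with bounds). Trem2, a lipid-sensing receptor of tissue macrophages, read 3.13 and 2.11 against -4.32 and -2.57, a difference of 6.06 ± 1.1. Fcgr1a, the high-affinity receptor for IgG, read 4.42 and 3.46 against -1.44 and -0.99, a difference of 5.15 ± 0.94 (adjusted p = 0.000933, limma). All 4 arrays measured both genes well above background and the groups did not overlap, as was true of 74.4% of all genes tested.

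Several receptors of microbial and sugar ligands were not well above background on the pan T arrays. Clec7a, the beta-glucan receptor dectin-1, read -1.52 and -1.36 against -7.34 and -6.29, at least 13.2-fold higher. Tlr4, the lipopolysaccharide receptor, was at least 11.3-fold higher, and Siglec1, the sialoadhesin of tissue macrophages, at least 7.43-fold. Tlr2, a receptor for bacterial lipoproteins, was well above background on both pan T arrays (-3.20 and -1.40) and was higher on the macrophage-labelled arrays by 4.26 ± 0.89. Spi1, the myeloid transcription factor PU.1, was at least 18.7-fold higher. The chemokine receptors of circulating monocytes were not called: Ccr2 differed by -0.79 ± 0.48 (called lower with quantile normalization, -1.40) and Cx3cr1 by 0.63 ± 0.69, with levels of Cx3cr1 of -1.42 and 1.54 on the macrophage-labelled arrays.

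Against glomerular CD8+ arrays, 12 of these 30 receptors were called higher and 4 lower (median 1.44). Cd14 was higher by 2.94 ± 0.82, Cd68 by 2.31 ± 0.62 and Tlr4 by 4.0 ± 0.70. Without the first macrophage-labelled array the calls of Cd14 (2.71, adjusted p = 0.0681, limma) and Cd68 (1.79, adjusted p = 0.0887, limma) were lost. The lower genes included Tyrobp (-1.57 ± 0.28) and Fcer1g (-1.34 ± 0.33), adaptors shared by macrophages and NK cells, and Fcgr3a (-2.21 ± 0.61), the low-affinity IgG receptor of both. Relative to pan T cells each of these was called higher, Fcgr3a by 3.01 ± 0.71. Fcer1g (adjusted p = 0.0744) and Fcgr3a (adjusted p = 0.0749) lost the call against glomerular CD8+ arrays without the second macrophage-labelled array (limma). Tyrobp and Fcer1g also lost it with quantile normalization (-0.59 and -0.57) and with the deposited log2 table (-0.68 and -0.45).

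Genes of macrophages in lesions gave the largest median among the leukocyte and inflammation lists. Of 22 listed, 21 were tested, 20 were called higher and 0 lower, with a median of 5.65, also with the 6 bounded genes at their bound. Mmp12, the macrophage elastase, read 4.09 and 3.56 against -6.88 and -6.99, at least 507-fold higher. Spp1, which encodes the matrix protein and cytokine osteopontin, read 3.38 and 3.06 against -7.18 and -6.94, at least 332-fold higher. Neither was well above background on a pan T array. Mmp14, a membrane-bound collagenase, was at least 164-fold higher, and Fabp4, a fatty acid carrier of macrophages, fat and endothelium, at least 55.6-fold.

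Gpnmb, a glycoprotein of lipid-laden macrophages, read 5.38 and 4.72 against -5.08 and -3.74, of which 1 pan T array was well above background, a difference of 9.46 ± 1.0. Il1rn, the interleukin 1 receptor antagonist, read 5.64 and 4.65 against -3.85 and -1.51, a difference of 7.82 ± 0.88 (adjusted p = 3.35e-05, limma). The exception in the list was Lgals1, a galectin made by many cells, which differed by 0.18 ± 0.41. Relative to the glomerular CD8+ arrays 15 of the 21 were called higher and 2 lower, with Mmp12 higher by 2.78 ± 0.81, Spp1 by 2.57 ± 0.53 and Gpnmb by 2.53 ± 0.86. The levels of Gpnmb on those 4 arrays, 1.46, 2.52, 2.33 and 3.77, lay between those of the pan T and macrophage-labelled arrays. Leaving out either macrophage-labelled array ended the call of Mmp12 against the CD8+ arrays (2.52 and 3.05, adjusted p = 0.0832 and 0.0509, limma) and that of Gpnmb (2.20 and 2.86, adjusted p = 0.143 and 0.076, limma).

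Promoters of these genes were searched for an AP-1 site (TGACTCA, or TGAGTCA on the opposite strand) and an M-box (TCATGTG, or CACATGA), the element bound by the MITF and TFE family of lysosomal and pigment-cell regulators. The sequences are from RefSeq (GRCr8) and shown because the genes moved together; they run 5′ to 3′ on the strand of the gene, upstream of its annotated start, with the motif in capitals. For the AP-1 site they are the elastase gene (chr8:12866535-12866601, plus strand), Gpnmb (chr4:79341011-79341077, plus strand) and Plaur, the urokinase receptor gene (chr1:89181250-89181316, plus strand).
Mmp12: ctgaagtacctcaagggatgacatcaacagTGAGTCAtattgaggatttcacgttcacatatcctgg
Gpnmb: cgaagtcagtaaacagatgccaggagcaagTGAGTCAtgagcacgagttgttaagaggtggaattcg
Plaur: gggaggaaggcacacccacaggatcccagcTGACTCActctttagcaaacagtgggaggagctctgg
In Mmp12 and Gpnmb the motif begins 87 bases before the start, and in Plaur 83. Of 16 lesion list genes with a promoter sequence, 4 held the AP-1 site in the 250 bases before the start, against 4.05% of 33469 promoters of the same length.
The M-box stretches are from Gpnmb (chr4:79341076-79341127, plus strand), Ctsk (chr2:185747367-185747433, plus strand) and Cd63 (chr7:1921998-1922064, plus strand).
Gpnmb: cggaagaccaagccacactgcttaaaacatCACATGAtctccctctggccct
Ctsk: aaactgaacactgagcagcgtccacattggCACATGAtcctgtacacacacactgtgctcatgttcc
Cd63: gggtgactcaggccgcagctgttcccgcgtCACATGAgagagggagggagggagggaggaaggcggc
The M-box occurred in 4 of 23 lysosome list promoters and 2 of 16 lesion list promoters, against 3.07% of all. These motifs and genes were picked after several had been searched, and a match is a description of letters, not of a bound site.

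Lysosome and lipid genes moved with them. Of 28 tested lysosome and phagocytosis genes, 21 were called higher and 1 lower (median 2.25, 1.95 with bounds). Cd63, a tetraspanin of late endosomes, read 3.99 and 3.58 against -2.15 and -3.72, a difference of 6.72 ± 0.52. Ctsk, a collagen-cleaving cathepsin, read 2.84 and 2.05 against -2.64 and -3.85, a difference of 5.68 ± 0.51, and Cd63 and Ctsk were also higher than on the glomerular CD8+ arrays (2.91 ± 0.45 and 2.80 ± 0.44). The lower gene was Acp5, an acid phosphatase (-1.91 ± 0.31). Ctsz, another cathepsin, differed by 4.07 ± 0.40 and Cybb, the catalytic chain of the phagocyte oxidase, by 3.40 ± 0.44, while Tfec, a macrophage member of the TFE family, was at least 3.37-fold higher and the proton pump gene Atp6v0d2 at least 2.60-fold. Of 19 lipid genes 17 were called higher and 0 lower, with a median of 4.76 (4.01 with bounds). Lpl, the lipoprotein lipase, read 0.55 and 0.72 against -7.14 and -6.99, at least 55.4-fold higher, and Ch25h, cholesterol 25-hydroxylase, was at least 107-fold higher. The oxysterol receptor gene Nr1h3 differed by 6.27 ± 0.85 (1 pan T array well above background), the oxidised lipoprotein receptor gene Olr1 was at least 76.0-fold higher and the lipase gene Mgll at least 37.4-fold. Lpl and Ch25h are expressed outside macrophages too.

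Cytokines and chemokines were largely higher. Among 16 tested inflammatory cytokine genes, 12 were called higher and 0 lower (median 3.05, 2.44 with bounds). Il1b read 5.98 and 5.09 against -1.51 and -1.49, a difference of 7.04 ± 0.76 (adjusted p = 2.33e-05, limma), and Il1a was at least 252-fold higher. Tnf differed by 3.47 ± 0.50 from pan T cells and by -1.19 ± 0.43 from glomerular CD8+ cells, whose levels of 5.79 to 6.49 exceeded the mean of the macrophage-labelled arrays (5.91 and 4.27). The Tnf call against glomerular CD8+ cells was lost under most alternatives, among them leaving out the second macrophage-labelled array (-0.37, adjusted p = 0.499, limma) or 3 of the 4 glomerular CD8+ arrays in turn (adjusted p from 0.0608 to 0.0892, limma), normexp background correction (-0.85), quantile normalization (-0.40) and the deposited log2 table (-0.11, adjusted p = 0.818, limma). Il33 and Il34, cytokines made mostly by stromal and epithelial cells, were also called higher, Il34 by 2.13 ± 0.45. Csf1, the growth factor for macrophages, differed by 4.57 ± 0.40 from pan T cells and by 0.28 ± 0.35 from glomerular CD8+ cells. Il10 was at least 5.2-fold higher than in pan T cells and lower than on the CD8+ arrays (-1.61 ± 0.24).

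For chemokines, 16 of 22 tested genes were called higher and 0 lower, with a median of 4.91 (4.70 with bounds). Cx3cl1, the membrane-bound chemokine fractalkine of inflamed endothelium, read 5.01 and 5.17 against -5.98 and -6.17, at least 1219-fold higher. The interferon-induced ligands of the T cell receptor CXCR3 came next. Cxcl9 read 2.52 and 2.64 against -6.50 and -6.62, at least 213-fold higher, Cxcl11 was at least 177-fold higher, and Cxcl10 read 3.25 and 3.5 against -3.11 and -4.30, a difference of 7.08 ± 0.42.

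Ccl2, the main monocyte attractant, read 4.51 and 4.35 against -0.95 and -1.44, a difference of 5.62 ± 0.82 (adjusted p = 0.000212, limma). Ccl7, a related monocyte attractant, was at least 86.8-fold higher. Ccl17 and Ccl22, ligands of CCR4, were higher by 7.50 ± 0.58 (1 pan T array well above background) and 5.62 ± 0.43. The 4 chemokines called lower than on the glomerular CD8+ arrays were Ccl3, Ccl4, Ccl5 and Xcl1, the usual products of NK and CD8+ cells (from -2.60 to -1.72; Ccl5 was under 2-fold with quantile normalization, -0.64, and the deposited log2 table, -0.79), while 15 were higher, Cxcl9 by 5.53 ± 0.47. Among complement genes 11 of 17 tested were called higher and 1 lower (median 3.12, 2.97 with bounds). C1r and C1s, the proteases of the first complement component, were at least 205-fold and 158-fold higher, and the C1q chain C1qa, a macrophage product, by 3.70 ± 1.30 (adjusted p = 0.0333, limma). C1qb (2.62 ± 1.20) and C1qc (2.97 ± 1.26) were not called when the arrays of all groups entered the fit. Both were called with only the compared arrays in the fit (adjusted p = 0.00213 and 0.00103, limma). The same held with only the arrays of slide 2 (adjusted p = 0.000441 and 0.00024, limma). C1qb read 2.67 and 2.57 against -0.23 and 0.23, but 3.08 and -1.7 on the LEW blood CD8+ RT1B+ arrays. C1qa lost its call without any 1 of the 4 compared arrays (adjusted p from 0.0875 to 0.119, limma). Serping1, the C1 inhibitor, differed by 7.82 ± 1.25, C2 by 4.05 ± 1.09 and the anaphylatoxin receptor gene C5ar1 by 3.89 ± 0.89. C2 was no longer called without the first macrophage-labelled array (adjusted p = 0.0504, limma) or the second pan T array (adjusted p = 0.051, limma). C6, a component of the membrane attack complex, read -1.58 and -0.64 on the pan T arrays and was at least 15.1-fold lower.

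MHC class II genes were higher against both groups. Of 16 genes 14 were tested, 12 were called higher than in pan T cells and 1 lower, with a median of 2.89, the same with 3 genes at their bound. RT1-Da, a class II alpha chain, read 4.79 and 4.15 against 1.49 and 0.71, a difference of 3.37 ± 0.40 (adjusted p = 5.12e-05, limma). Cd74, the invariant chain, read 6.35 and 5.80 against 3.14 and 2.29, a difference of 3.36 ± 0.39. Ciita, the master regulator of the class II genes, read -0.99 and -1.12 against -5.35 and -5.29, at least 17.2-fold higher. The groups did not overlap in any of the 3, nor did they in 74.4% of all genes tested.

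RT1-DMb, a chain of the peptide exchange factor, differed by 3.21 ± 0.45. The receptor Cd40 was higher by 6.09 ± 0.50, and the costimulator Cd86 read -1.72 and -2.03 against -7.12 and -5.63, at least 9.72-fold higher. The lower gene was RT1-DOb, a chain of the class II peptide-loading inhibitor that B cells make (-2.09 ± 0.28). Against the glomerular CD8+ arrays 13 of 14 were called higher and 0 lower (median 2.05), RT1-Da by 2.84 ± 0.35. RT1-DOb was among them (1.30 ± 0.24). That call of RT1-DOb was lost with normexp background correction (0.58, adjusted p = 0.0948, limma), and the difference was under 2-fold with quantile normalization (0.84) and the deposited log2 table (0.93).

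The class II promoters share an inverted CCAAT box (GATTGG, or CCAATC on the opposite strand), the Y box of the X-Y module that serves CIITA. It is shown for 4 members, all of which were called, from RefSeq (GRCr8) and in the strand of the gene, with the motif in capitals: RT1-Da (chr20:4515335-4515400, plus strand), RT1-Db1 (chr20:4560208-4560273, minus strand), RT1-Bb (chr20:4604145-4604210, minus strand) and RT1-DMa (chr20:4712365-4712430, minus strand).
RT1-Da: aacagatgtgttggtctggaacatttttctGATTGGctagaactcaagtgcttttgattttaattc
RT1-Db1: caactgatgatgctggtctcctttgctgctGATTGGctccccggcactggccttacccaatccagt
RT1-Bb: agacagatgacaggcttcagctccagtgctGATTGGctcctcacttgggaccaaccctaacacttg
RT1-DMa: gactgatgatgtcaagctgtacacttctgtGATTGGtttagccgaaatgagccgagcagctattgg
The box begins 50, 81, 62 and 65 bases before the start in this order, and RT1-Db1 has another, on the opposite strand, 55 bases before it. In all, 8 of 14 listed promoters held it against 13.3% of 33469. RT1-DOb, which was lower than in pan T cells, holds it as well.

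Arginine and nitric oxide genes showed enzymes of more than one cell type. Of 12 tested, 10 were called higher and 0 lower (median 4.66, 3.75 with bounds). Ass1, which makes the precursor of arginine, read 3.45 and 2.81 against -6.79 and -6.77, at least 313-fold higher. Arg1, an arginase of macrophages, read 0.82 and -0.23 against -7.22 and -6.86, at least 43.8-fold higher. Nos2, the inducible nitric oxide synthase, read -0.70 and -0.65 against -5.70 and -5.82, at least 22.3-fold higher, and Nos3, the endothelial synthase, at least 62.2-fold. For Ddah1, which breaks down an inhibitor of these synthases, the probes disagreed: the one used differed by 5.55 and was not well above background on the pan T arrays, and another, well above background on all 4 arrays, differed by 0.84. Arg1, Nos2, Nos3 and Ass1 were also higher than on the glomerular CD8+ arrays, by 2.95 ± 0.50, 1.76 ± 0.54, 6.26 ± 0.42 and 3.38 ± 0.63. The second arginase, Arg2, was lower than there (-2.77 ± 0.42). The call of Nos2 against the CD8+ arrays was lost without either macrophage-labelled array (adjusted p = 0.0673 and 0.084, limma).

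**Figure D3:**
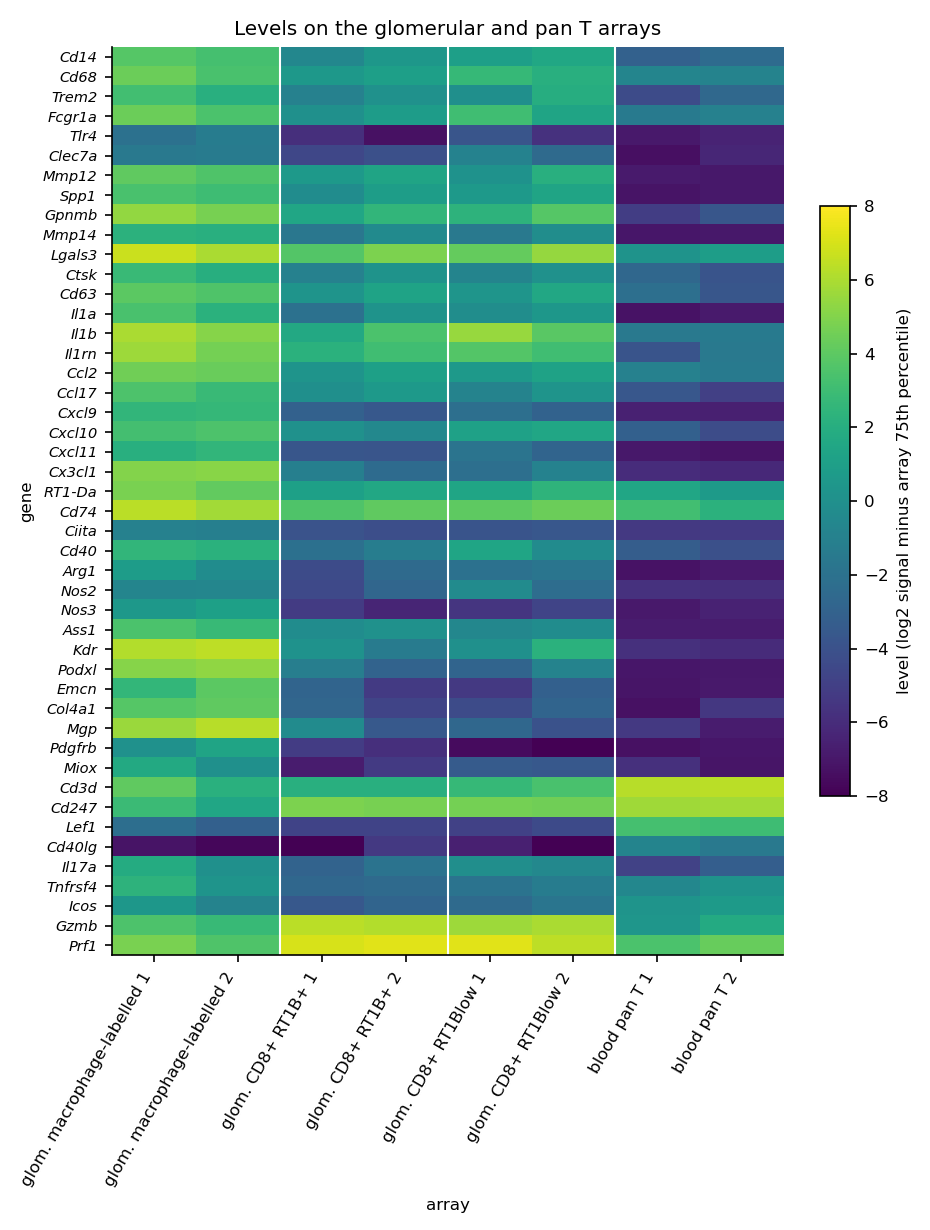
Levels (colour, log2 signal minus the array's 75th percentile) of 46 named genes in rows on the 2 macrophage-labelled, 4 glomerular CD8+ and 2 pan T arrays in columns; colours are to be read along a row, since levels of different genes are not comparable. Genes from Cd14 to Miox are brightest on the macrophage-labelled arrays, except Clec7a, Il1b and Nos2, for which 1 glomerular CD8+ RT1Blow array is brighter than at least 1 of them, and Cd247 and Lef1 are brightest on the pan T arrays.

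T cell genes were lower as a block. All 18 tested T cell receptor and coreceptor genes of 20 listed were called lower than in pan T cells, with log2 differences from -3.77 to -2.04 (median -3.08, -2.98 with bounds). Cd3g, a CD3 chain, read 3.61 and 1.97 against 6.05 and 6.04, a difference of -3.26 ± 0.53 (adjusted p = 0.000438, limma). Cd8a and Cd8b, the coreceptor chains, were lower by -2.53 ± 0.32 and -3.69 ± 0.55, and Cd4 by -3.49 ± 0.51. Among the other T cell genes Cd6 differed by -3.17 ± 0.44, Trat1 by -2.58 ± 0.39 and the adaptor gene Skap1 by -3.77 ± 0.26. Cd28, the costimulatory receptor, was not well above background on either macrophage-labelled array and at least 7.82-fold lower. Against the glomerular CD8+ arrays 7 of the 18 were called lower, 1 was called higher and 10 were not called (median -0.52). Cd247, the zeta chain also used by NK cells, was lower there by -2.48 ± 0.32 and Cd8a by -2.77 ± 0.28, whereas the inhibitory receptor Cd5 was higher by 1.90 ± 0.49, a call lost without the first macrophage-labelled array (adjusted p = 0.109, limma).

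Genes of naive and recirculating T cells were lower too. Of 13 tested, 12 were called lower and 0 higher, with a median of -3.60 (-2.99 with bounds). Lef1, a TCF family transcription factor that naive T cells express, read -2.19 and -3.08 against 3.26 and 3.04, a difference of -5.78 ± 0.47. The homing chemokine receptor Ccr7 differed by -4.66 ± 0.68. The costimulator Cd27 was lower by -4.04 ± 0.35, the interleukin 7 receptor gene Il7r by -3.76 ± 0.50, and the signalling gene Rasgrp1 was at least 4.22-fold lower. Il7r was higher than on the glomerular CD8+ arrays (2.33 ± 0.43), whereas Cd27 was lower (-3.28 ± 0.30). The gene that was not called, Klf2, also serves endothelium and read 1.20 and 2.32 against 2.76 and 2.62.

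Activation genes of T cells changed in both directions. Of 15 tested, 4 were called higher and 4 lower (median 0.02, 0.00 with bounds). Over all genes tested, 17.8% were called higher and 19.9% lower, so counts this small are near those shares. Il17a, the cytokine of Th17 and other type 17 cells, read 1.85 and 0.00 against -4.84 and -3.22, a difference of 4.96 ± 0.64 (adjusted p = 8.42e-05, limma). Tnfrsf9, the activation receptor 4-1BB, read 1.15 and 0.13 against -5.07 and -4.20 with 1 pan T array well above background, a difference of 5.27 ± 0.49, and Tnfrsf4, which encodes OX40, differed by 1.5 ± 0.53 (adjusted p = 0.0337, limma). Icos, a costimulator of activated T cells, was not called (-0.67 ± 0.45). The lower genes were Cd40lg, at least 16.3-fold, Ctla4 (-2.59 ± 0.36), Foxp3 (-1.41 ± 0.39) and Tnfrsf18 (-1.29 ± 0.33). Foxp3 and Tnfrsf18 lost their calls without the second pan T array (adjusted p = 0.0928 and 0.0612, limma), and Tnfrsf4 without the first macrophage-labelled array (0.49, adjusted p = 0.34, limma). On the glomerular CD8+ arrays Il17a read -2.91, -1.90, -0.09 and -0.54, below both macrophage-labelled arrays. The arrays of these groups did not overlap for 59.0% of all genes tested. The mean of the macrophage-labelled arrays exceeded theirs by 2.29 ± 0.55; for Tnfrsf4 the difference was 3.40 ± 0.46 and for Icos 2.48 ± 0.39. Without the first macrophage-labelled array the Il17a difference from the CD8+ arrays was 1.36 and not called (adjusted p = 0.0805, limma). Tnfrsf9, by contrast, was lower than on those arrays by -2.70 ± 0.42, and Ifng, the main cytokine of cytotoxic cells, by -3.63 ± 0.32.

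NK and cytotoxic genes were near the pan T level. Of 19 tested, 3 were called higher and 4 lower (median 0.22), near the shares of all genes tested (17.8% higher, 19.9% lower). Prf1, which encodes perforin, read 4.78 and 3.58 against 3.48 and 4.29, overlapping ranges (0.30 ± 0.43, adjusted p = 0.59, limma). Gzmb, a granzyme, was higher by 2.05 ± 0.40, and the NK receptor gene Klrd1 lower by -1.79 ± 0.35. Klrb1a, the NK receptor CD161, was not called (-0.08 ± 0.27). Gzmc and the cystatin gene Cst7 were higher (2.88 ± 0.37 and 1.99 ± 0.27), Ctsw and the receptor gene Klrk1 lower (-1.98 ± 0.41 and -1.18 ± 0.31). Klrk1 lost its call without the second array of either group (adjusted p = 0.0821 and 0.0715, limma). Relative to the glomerular CD8+ arrays all 19 were called lower, with a median of -2.80: Ncr1, which encodes the NK receptor NKp46, differed by -4.39 ± 0.48, and Prf1, at 6.40 to 7.31 there, by -2.81 ± 0.37.

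Markers of other blood cells changed as follows. For B cells, 2 of 13 tested genes were called higher and 5 lower (median -0.98, 0.00 with bounds), against 17.8% and 19.9% of all genes tested. The lower genes included Cd79b, a chain of the B cell receptor (-2.55 ± 0.52), Fcmr, the IgM receptor (-1.79 ± 0.39), and Cd22, an inhibitory B cell receptor (at least 3.01-fold). The kinase and adaptor genes Blk and Blnk, which myeloid and T cells can also express, were at least 2.09-fold and 4.03-fold higher. Among 7 tested neutrophil genes 6 were called higher and 1 lower, with S100a9, a calcium-binding protein of neutrophils and monocytes, at 1.48 and 0.01 against -4.91 and -5.32, at least 55.3-fold higher. S100a8 was at least 27.7-fold higher, Lcn2 at least 20.3-fold, the receptor genes Csf3r and Fpr1 at least 1.95-fold and 1.67-fold, and Camp differed by 2.38 ± 0.49; Ltf was at least 3.87-fold lower. The call of Csf3r was lost without either macrophage-labelled array or the first pan T array (adjusted p from 0.0685 to 0.2, limma), and that of Ltf without the second macrophage-labelled or the first pan T array (0.0602 and 0.0829). The neutrophil chemokine receptor Cxcr2 was not well above background on any of the 4 arrays. Of 10 dendritic cell genes, 7 were called higher and 0 lower, Cd83 by 5.40 ± 0.65, the actin bundler Fscn1 by 5.13 ± 1.02, Batf3 by 2.50 ± 0.41, Irf4 at least 4.25-fold and Clec9a at least 6.10-fold, while Xcr1 was not well above background and Zbtb46 differed by 0.27 ± 0.42. A second Clec9a probe was not well above background on any of the 4 arrays. Of 7 mast cell and basophil genes 1 was called higher (Gata2, which endothelium also expresses) and 0 lower, and Fcer1a and Ms4a2, the defining receptor chains, were not well above background, nor was the mast cell protease gene Cpa3. Erythroid and platelet genes gave 1 higher and 4 lower of 11, with Alas2, the haem synthesis enzyme of red cell precursors, lower by -4.40 ± 1.28. Ahsp, a haemoglobin chaperone, differed by -5.22 ± 1.45 and Hbb-bs by -3.77 ± 1.13. All 3 calls were lost without the second macrophage-labelled array (adjusted p from 0.0603 to 0.098, limma) and without the second pan T array (0.0732 to 0.0866). The globin genes Hbb (-1.66 ± 0.99) and Hba-a1 (-1.35 ± 0.79) and the platelet gene Pf4 (0.67 ± 0.88) were not called; second probes of Hbb and Hba-a1 differed by -3.22 and -3.66, and both genes were called lower when only the compared arrays entered the fit, but not with the mean of their probes. The platelet gene Gp9 was higher (1.56 ± 0.56), a call lost without either macrophage-labelled array or the first pan T array (adjusted p from 0.0541 to 0.339, limma). Against the glomerular CD8+ arrays 7 of the 11 were called higher and 0 lower, Hba-a1 by 2.80 ± 0.69 (adjusted p = 0.0521 without the first macrophage-labelled array, limma) and Pf4 by 3.02 ± 0.76.

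**Figure D4:**
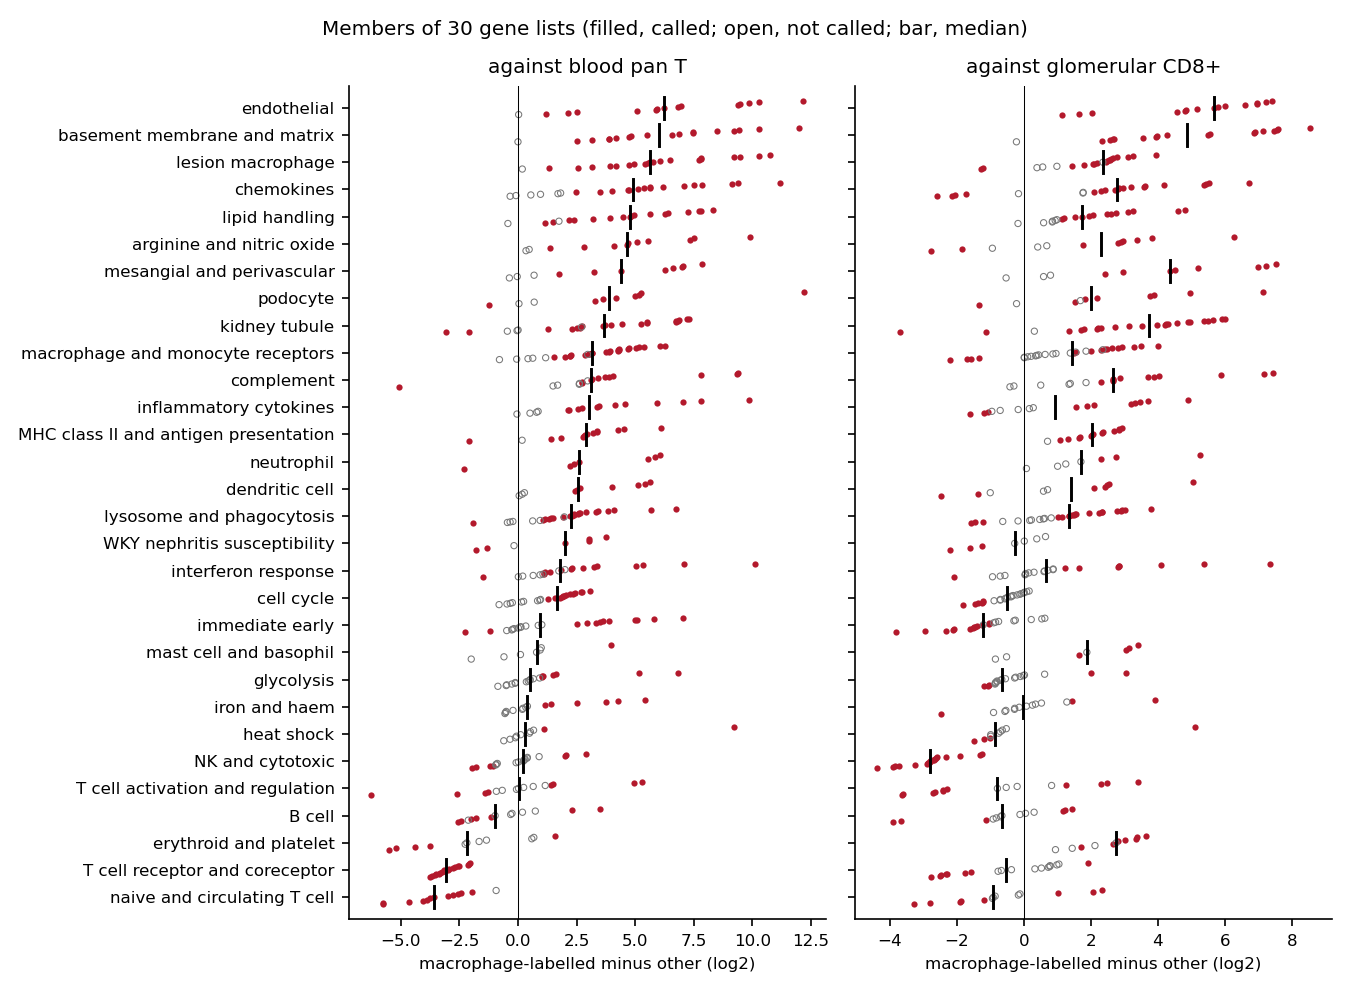
Log2 differences of the tested members of 30 gene lists, macrophage-labelled minus blood pan T (left) and minus glomerular CD8+ (right); filled points are called genes, open points are not, and bars are list medians. On the left panel the medians run from -3.60 to 6.23. Those of kidney and macrophage lists lie to the right of 0. Those of the T cell receptor and naive T cell lists lie to the left, and that of T cell activation near 0 (0.02). On the right panel the NK list lies wholly to the left.

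State genes shared by many cells divided by program. Of 22 tested interferon response genes, 14 were called higher and 1 lower (median 1.79): Ifitm3, a membrane protein that blocks virus entry, read 2.58 and 3.45 against -7.16 and -7.05, at least 288-fold higher, Gbp2, a guanylate-binding protein, differed by 3.26 ± 0.22. Ifi27 differed by 5.04 ± 0.67 and Ifit2 by 3.38 ± 0.55, and Ifit3 was at least 28.1-fold higher. The antiviral gene Mx1 was lower by -1.51 ± 0.27. Of 22 tested cell cycle genes, 13 were called higher than in pan T cells and 0 lower (median 1.68), with Cdk1, the mitotic kinase, at 2.33 and 2.20 against -1.51 and -0.11, a difference of 3.08 ± 0.40. Tpx2, Ccna2, Kif20a and Bub1, all used in mitosis, and Rrm2, which supplies nucleotides for DNA synthesis, differed by 2.23 to 2.73. Against the glomerular CD8+ arrays 0 were called higher and 6 lower, and Cdk1 differed by 0.09 ± 0.34.

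Immediate early genes gave 10 higher and 2 lower of 22 (median 0.94), with Atf3, a stress-induced transcription factor, at 4.66 and 4.77 against -1.90 and -2.75 (7.04 ± 0.42), while Myc was lower by -2.28 ± 0.25. The nuclear receptor gene Nr4a3 was at least 21.4-fold higher, Egr2 at least 20.5-fold and Fosl1 at least 4.76-fold, and Ier3 and Nr4a1 differed by 5.0 ± 0.57 and 3.88 ± 0.35. By comparison with the glomerular CD8+ arrays 0 were higher and 13 lower, with Nr4a3 at -3.81 ± 0.66 and Nr4a1 at -2.07 ± 0.30. These genes are known to respond to cell handling as well as to signals in tissue. Heat shock genes gave 2 higher and 0 lower of 10, where 17.8% of all genes tested were higher and 19.9% lower. The larger rise was that of the small heat shock protein gene Hspb1 (9.23 ± 0.60, with 1 pan T array well above background). The other was Hsp90aa1 (1.1 ± 0.23, under 2-fold without the first array of either group). Of 19 glycolysis genes 7 were called higher and 0 lower (median 0.52), with the lactate exporter Slc16a3 higher by 5.15 ± 0.64. Hk3, a hexokinase of myeloid cells, was at least 113-fold higher, the glucose transporter Slc2a1 differed by 1.60 ± 0.35, and the glycolytic enzyme genes Tpi1, Gapdh and Aldoa by 1.47 ± 0.25, 1.07 ± 0.32 and 1.01 ± 0.24. Without the first macrophage-labelled array Gapdh (0.66) and Aldoa (0.78) were not called, nor was Gapdh without either pan T array (adjusted p = 0.0612 and 0.0547, limma). Of 14 iron and haem genes 6 were called higher and 0 lower (median 0.36), among them Hmox1, the inducible haem oxygenase (5.41 ± 0.26), the phagosomal metal transporter gene Slc11a1 (4.27 ± 0.81), the haem transporter gene Slc48a1 (1.41 ± 0.29), the ferritin gene Fth1 (1.15 ± 0.30) and the iron exporter gene Slc40a1 (at least 2.21-fold). Slc40a1 lost its call without either macrophage-labelled array or the first pan T array (adjusted p from 0.0623 to 0.158, limma), and Fth1 without the first macrophage-labelled array (0.79, adjusted p = 0.0734, limma).

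Genes linked to nephritis susceptibility of WKY rats were a list of 7, all tested, with 4 higher and 2 lower than in pan T cells. The Fc receptor genes Fcgr3a (3.01 ± 0.71), Fcgr2b (3.01 ± 0.31) and Fcgr2a (2.0 ± 0.29) were higher, as was ceruloplasmin, Cp, at 1.01 and 1.1 against -4.10 and -1.28 (3.74 ± 0.72). The arrestin gene Arrb2 (-1.77) and the potassium channel gene Kcnn4 (-1.33) were lower, Kcnn4 no longer past the threshold without the second macrophage-labelled array (adjusted p = 0.053, limma). Jund, a transcription factor of the AP-1 family and the best known of these genes, read 5.35 and 4.95 against 5.37 and 5.29 and was not called (-0.17 ± 0.37). Fcgr2a, Fcgr2b and Fcgr3a are close relatives in sequence, and whether their probes tell them apart was not tested.

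By size alone, the 15 largest rises were Tm4sf1, Podxl, Kdr, Mgp, Adgrl4, Tgm2, Cx3cl1, Mmp12, Vwa1, Vcam1, Emcn, Spp1, Col4a1, Apln and Depp1, none of them well above background on a pan T array. Tm4sf1, a tetraspan protein abundant in endothelium, read 5.31 and 5.5 against -7.40 and -7.02, at least 1510-fold higher, and Vcam1, the adhesion molecule of inflamed endothelium and mesangium, at least 671-fold. Of the 15, Kdr and Emcn are on the endothelial list, Col4a1 and Mgp on the matrix list, Podxl on the podocyte list, Cx3cl1 on the chemokine list and Mmp12 and Spp1 on the lesion macrophage list. All 15 were also called higher than on the glomerular CD8+ arrays, by 2.57 ± 0.53 for Spp1 up to 8.55 ± 1.11 for Mgp. The largest falls included the transcription factor gene Bhlhe22 (at least 52.5-fold), the T cell surface ADP-ribosyltransferase Art2b (2.23 and 2.98 on pan T arrays, -3.81 and -4.27 on macrophage-labelled arrays, -6.65 ± 0.39), Cd40lg, Lef1 and the red cell anion exchanger Slc4a1 (-5.49 ± 1.36). Others were Add2 (at least 29.6-fold), Mrap2 (15.2-fold), Tnn (15.96-fold) and Cmahp (37.9-fold), all not well above background on either macrophage-labelled array, and Paqr5 (-5.40 ± 0.80). Also among them were 4 vomeronasal receptor genes (Vom2r4, Vom2r1, Vom2r73 and Vom2r2), which belong to a large family of near-identical sequences, so their identity is uncertain.

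Relative to all 14 other arrays, both macrophage-labelled arrays were highest for 2281 of 17879 genes (12.8%) and lowest for 3318 (18.6%). They were highest for 14 of 15 endothelial genes, 16 of 18 matrix genes, 15 of 21 lesion macrophage genes, 15 of 19 lipid genes, 11 of 14 class II genes and 14 of 22 chemokines. Only 9 of 30 macrophage and monocyte receptors were, since other arrays reached the same level: Adgre1 read 0.02 on 1 glomerular CD8+ RT1Blow array against -2.46 and -2.22. For the cell cycle, immediate early, NK and B cell lists the number was 0.

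The 2 macrophage-labelled arrays differed from each other in a way that ran through whole lists. Over all genes the first array minus the second had a median of 0.05, with 53.4% of genes higher on the first. T cell receptor genes were higher on the first array for 17 of 18 members (median difference 1.15), NK genes for 19 of 19 (0.82), tubule genes for 18 of 24 (0.74) and lesion macrophage genes for 18 of 21 (0.51). Endothelial genes were higher on the first array for 2 of 15 members (median -0.42), mesangial genes for 1 of 11 (-0.98) and matrix genes for 4 of 18 (-0.31). The array with more T cell, NK, tubule and lesion macrophage signal thus had less endothelial, mesangial and matrix signal. The kidney lists therefore did not move as one, and no test was made with 1 array on each side.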

How the data were processed

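Total RNA of sorted cells was hybridised to Agilent 1-colour rat arrays. Per the file headers, the deposited scanner files were made with Feature Extraction 11.0.1.1 on a design annotated on rn4, and their processed intensity is already background-subtracted and detrended. The authors deposited a further table of log2 values with equal column medians, whose method is not given in the sources used here; it served as an alternative.

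From the intensity values, control spots and outlier-flagged spots were left out, replicate spots averaged, and log2 taken minus each array's 75th percentile. Of 26785 genes, each represented by its probe with the highest mean, 17879 were well above background on both arrays of at least 1 of 8 groups and were tested. All 16 arrays entered 1 fit of group means (limma 3.58.1 in R 4.3.3, lmFit and eBayes, Benjamini-Hochberg over all genes tested). Symbols were assigned by matching the transcript identifier of each probe to RefSeq (GRCr8), and probes without a match kept that identifier as their gene name. Of the 26785 genes, 15443 had a symbol, and so did 4248 of the 6747 called against pan T cells. Each group has 2 arrays, and their number limits the precision.

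The compared groups, gene lists and naming rule were chosen with earlier results of these data known. The rule named the 15 largest called rises and falls, up to 6 called members of each list, the cell type markers, and other list members by their values. Some list members are counted but not reported here by name. Ms4a1 and Flt3 had no probe under those symbols, and Ppbp was not tested. Among 86 listed genes with several probes, 18 had probes whose differences lay more than 2 log2 units apart. Those named here were Add2, Bub1, Clec9a, Col4a1, Ddah1, Gzmc, Hba-a1, Il1a, Itga8, Nid2, Tnn, Vom2r73 and Wt1. Probe choice set the size of their differences. The call of Csf1r changed with the mean of its probes. By the probe used, it also changed with the filter, the variance setting and the arrays in the fit. Alternatives were normexp background correction, quantile normalization, a stricter or absent filter for dim probes, the deposited log2 table, the mean of a gene's probes, no fold minimum, trended variances, fewer arrays in the fit, and leaving out each array. The fit was tested on simulated data, in which far fewer genes were changed than were called here. It recovered 18 of 67 changes of 2-fold, 55 of 67 of 4-fold and 66 of 66 of 8-fold. Of 142 calls there, 3 were false. Because the share of changed genes differed, recovery in the data may differ from these counts. A difference near 2-fold that was not called is no sign of equal levels.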

Additional observations from a re-analysis of the deposited data

How the results depend on the processing

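Counts of called genes kept within 1.5 times of the main count under the alternatives run, except that requiring signal well above background on every compared array left 4485 genes called against pan T cells. Leaving out each array in turn gave 6073 to 6676 called genes against pan T cells and 5449 to 7024 against glomerular CD8+ cells. The share of called genes that was higher than in pan T cells, 47.2%, was 48.7% with normexp, 39.8% with quantile normalization, 32.8% with the stricter filter, 50.05% with the deposited log2 table, 42.65% with no fold minimum, and 47.1% to 49.4% without 1 array. Quantile normalization moved the median of all genes by -0.23.

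Of 216 named genes called against pan T cells, 19 lost the call without some array, and of 180 called against glomerular CD8+ cells, 49 did. Under the other alternatives, 20 named genes lost the call against pan T cells under at least 1 (Aldoa, Blk, C1qa, Cd40lg, Csf3r, Fcgr3a, Foxc2, Foxp3, Fpr1, Gapdh, Gp9, Hbb-bs, Hsp90aa1, Klrk1, Ltf, Nid2, Slc12a1, Slc40a1, Tnfrsf18 and Tnfrsf4), and 33 lost that against glomerular CD8+ cells. Fth1, not called against glomerular CD8+ cells (-0.14), was higher with the deposited table (1.09). Some list medians near 0 changed sign, and the cause was not tested. Against pan T cells, the T cell activation median was -0.27 with quantile normalization, -0.37 with the stricter filter and -0.44 to 0.38 without 1 array; NK genes ranged from -0.39 to 0.57 and mast cell genes from -0.33 to 1.08 without 1 array. Against glomerular CD8+ cells, the iron and haem median was 0.17 with normexp, 0.27 with quantile normalization, 0.077 with the stricter filter, 0.27 with the deposited table, 0.21 with the mean of probes and -0.24 to 0.24 without 1 array, and the WKY susceptibility median was 0.013 with the mean of probes. The deposited table lacks values for some dim spots, so genes such as Tm4sf1, Mmp12 and Depp1 have no value under it.

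No paired analysis was possible because the labels give no replicate numbers and the numbers used follow accession order. With 2 arrays a group, a dim gene's fold is only a lower bound, and differences near 2-fold rest on single arrays.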
